A study of Mus musculus with 12 samples.

Results

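The distal colon and the urinary bladder of mice that lack YAP and TAZ in smooth muscle were compared with each other. The comparison rests on 6 of 12 RNA-sequencing libraries, 3 from Y/T KO colon and 3 from Y/T KO urinary bladder. Genes with at least 0.5 TPM (transcript abundance scaled to the same total in every library) in at least 3 of these 6 libraries were tested, which left 18424 of 54532 genes. The Y/T KO mice were males of 5 to 7 weeks that carried floxed alleles of both Yap1 and Wwtr1, the genes of YAP and TAZ, together with Myh11-CreERT2, a tamoxifen-inducible Cre driven by the smooth muscle myosin promoter. The Ctrl mice were males of the same age with the floxed alleles and without Cre. All mice, Ctrl included, received tamoxifen (1 mg per mouse and day) on 5 consecutive days, and tissue was taken 7 days after the first injection. Y/T KO colon came from mice 759, 783 and 780, and Y/T KO bladder from mice 782, 783 and 780, so that 2 of the 4 Y/T KO mice gave both organs. Ctrl colon came from mice 788, 786 and 787 and Ctrl bladder from mice 784, 785 and 788. Values of 3 libraries are given in these orders throughout.

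YAP and TAZ are transcriptional co-activators that are held in the cytoplasm by the kinases of the Hippo pathway and that act in the nucleus mainly through TEAD transcription factors. In smooth muscle they are known as sensors of cell tension and as partners of the serum response factor program that keeps contractile genes on. The colon wall is lined by a single-layered epithelium of colonocytes and goblet cells and carries an enteric nervous system, whereas the bladder is lined by a stratified urothelium and surrounded by the detrusor, a thick muscle coat. RNA was taken from whole organs, so that a lower level in one organ can come from fewer cells of a type or from less RNA per cell, and these cannot be told apart. Cre was driven by a smooth muscle promoter, so that other cell types were to keep both genes.

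Levels of single genes are TPM as deposited, and summed levels of gene lists are sums of rescaled TPM. A difference is the mean log2 of rescaled TPM plus 0.1 in colon minus that in bladder, so that a positive value is higher in colon, and is followed by its standard error (SE). The tests were made with limma over all genes, two-sided, with Benjamini-Hochberg adjustment, and a gene is called where the adjusted p is under 0.05. A change is the organ difference in Y/T KO minus that in Ctrl, which equals the genotype effect in colon minus that in bladder. Its sign says toward which organ the difference moved in Y/T KO. A count of list members that moved toward an organ counts signs of the estimate, whether or not a gene passed a test. It stands beside 8800 of 18424 genes toward colon and 9624 toward bladder. A count of list members called in Y/T KO stands beside 25.7% of all genes higher in colon and 25.1% higher in bladder.

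The libraries held 2.80 to 3.94 gigabases of aligned sequence. Yap1 stood at 44.0, 41.3, 47.0 TPM in Y/T KO colon and at 71.3, 69.4, 72.1 TPM in Y/T KO bladder. In Ctrl it stood at 54.9, 52.8, 45.8 TPM in colon and 101, 98.6, 109.8 TPM in bladder, so that the genotypes overlapped in colon and not in bladder. After the rescaling described next to the tests they did not overlap in either organ. Wwtr1, at 17.9, 20.5, 22.7 TPM in Y/T KO colon and 59.3, 60.8, 48.3 TPM in Y/T KO bladder, overlapped with Ctrl in both organs (16.8, 21.5, 17.2 TPM in colon, 32.5, 61.6, 53.3 TPM in bladder) and does not check the genotype labels. Some bladder libraries stood apart. Sbp, a secretory protein gene of male accessory glands, was at 19.2, 39648, 27206 TPM in Y/T KO bladder and at 36341, 14.3, 35.3 TPM in Ctrl bladder, against at most 2.61 TPM in any colon library. The same libraries (Y/T KO bladder 783 and 780, Ctrl bladder 784) held striated muscle RNA. Myh4, a fast skeletal myosin, was at 0, 409, 432 TPM in Y/T KO bladder and 46.1, 0, 0 TPM in Ctrl bladder. The summed level of 19 striated muscle genes ran from 1913 to 10115 TPM in Y/T KO bladder and from 57.8 to 64.1 TPM in Y/T KO colon. In Ctrl bladder it ran from 1898 to 3075 TPM. The sum was thus above that of colon in every bladder library, also where Myh4 was at 0. Each result below was also computed without Y/T KO bladder 783 and 780 and Ctrl bladder 784, called the 3 libraries below. This alternative was chosen after the data were seen. It leaves a single Y/T KO bladder library that is assumed to vary like the other groups. Medians of gene lists count genes listed at 0 by fitted values that depend on the pseudocount.

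Colon and bladder differed at 9369 of 18424 genes in Y/T KO (50.9%), with 4738 higher in colon (25.7%) and 4631 higher in bladder (25.1%). A difference of at least 2-fold was called for 2800 genes higher in colon (15.2%) and 3350 higher in bladder (18.2%). The values of the organs did not overlap at 11263 genes (61.1%). Without the 3 libraries 2946 genes were higher in colon and 2589 higher in bladder. The split depends on the scaling. With TPM as deposited the median gene moved by -0.27 (log2) toward bladder, and 3334 genes were higher in colon and 6241 in bladder, although no gene called in the rescaled values changed its sign.

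Most organ differences were present in both genotypes. Ctrl colon and Ctrl bladder, which share no library with the Y/T KO comparison, differed at 9223 genes (50.1%). Of these, 7082 were called in the same direction in Y/T KO, 3494 higher in colon and 3588 higher in bladder, which is 75.6% of the Y/T KO calls and 76.8% of the Ctrl calls. Only 15 genes were called in opposite directions. A further 2272 genes were called in Y/T KO alone, of which 1972 had the same sign in Ctrl, and 2126 were called in Ctrl alone, of which 1841 had the same sign in Y/T KO. Across the 18424 genes, which are not independent, the organ differences of the genotypes had a Pearson r of 0.92.

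Differences were smaller in Y/T KO about as often as larger. To avoid choosing them by the calls of either genotype alone, organ genes were taken from the average of the organ differences over genotypes. This average called 11721 genes (63.6%). The difference was smaller in Y/T KO at 5708 of them (48.7%) and larger at 6013, with a median change of 0.02 (log2). The expression filter did favour a genotype, since genes expressed in Ctrl that fell below it in Y/T KO were not counted. With the filter applied over all 12 libraries, which added 1349 genes to those tested, 49.3% of organ genes had a smaller difference in Y/T KO. Of the 5792 organ genes higher in bladder, 46.6% had a smaller difference in Y/T KO, and of the 5929 higher in colon 50.8% did. At an unadjusted p under 0.05 the change was toward a smaller difference at 746 organ genes and toward a larger one at 831. After adjustment over all 18424 genes, 12 changes were called (0.0651%), 7 toward colon (0.038%) and 5 toward bladder (0.0271%), while 2256 passed an unadjusted p under 0.05 (12.2%).

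**Figure D1:**
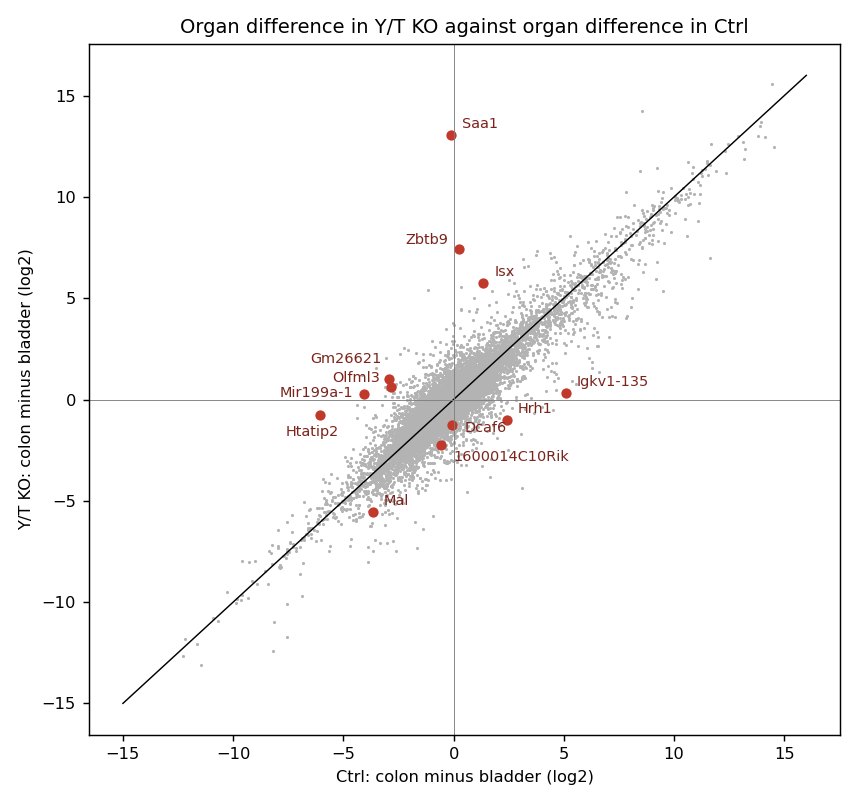
Organ difference of each of 18424 genes in Y/T KO (vertical axis, log2) against that in Ctrl (horizontal axis, log2); the line marks equal differences and red points mark the 12 genes whose difference changed. Grey points follow the line (r = 0.92). Saa1 lies at an organ difference of 13.04 in Y/T KO and -0.11 in Ctrl, and Igkv1-135 lies at 0.32 in Y/T KO and 5.09 in Ctrl. Positions of Saa1 and of genes listed at 0 in a whole group, Zbtb9 among them, depend on the pseudocount.

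Of the 12 changed genes, 3 differed between organs in Y/T KO and showed no called difference in Ctrl. Saa1 (chr7:46740497-46742980, - strand), an acute-phase apolipoprotein, was at 2085, 4208, 5284 TPM in Y/T KO colon and at 0.0758, 1.77, 0.271 TPM in Y/T KO bladder. All 6 Ctrl libraries lay under 0.07 TPM, below the pseudocount of 0.1, so that the sizes of the differences depend on it. The organ difference was 13.04 ± 0.92, adjusted p = 0.000144 in Y/T KO and -0.11 ± 0.47 in Ctrl, a change of 13.15 ± 0.96, adjusted p = 0.000166. Its neighbour Saa2, which is nearly identical in sequence, was at 0.636, 2.36, 5.00 TPM in Y/T KO colon and at most 0.146 TPM in Y/T KO bladder, and how reads were divided between the copies is uncertain. The zinc finger gene Zbtb9 (chr17:26973167-26976205, + strand) was at 16.2, 15.1, 15.6 TPM in Y/T KO colon and listed at 0 in the 3 Y/T KO bladder libraries, whereas Ctrl had 15.3, 12.6, 13.7 TPM in colon and 13.7, 14.0, 14.6 TPM in bladder. The change passed the test (adjusted p = 5.62e-08). Ggnbp1 overlaps it on the same strand and was at 20, 17.5, 21.8 TPM in Y/T KO bladder against 8.88, 9.42, 8.62 TPM in Ctrl bladder, so that the assignment of reads between them is uncertain. Dcaf6 (chr1:165328698-165460475, - strand), a substrate receptor of a cullin ubiquitin ligase, was at 25.6, 22.2, 20.6 TPM in Y/T KO colon and 64.8, 64.7, 68.6 TPM in Y/T KO bladder. Its Ctrl values of 27.3, 31.1, 23.9 TPM in colon and 32.7, 33.5, 37.5 TPM in bladder lay close together, and the change was -1.18 ± 0.16, adjusted p = 0.022.

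Another 3 genes had an organ difference in Ctrl and no called difference in Y/T KO. Igkv1-135 (chr6:67609713-67610508, + strand), an antibody light chain segment made by plasma cells, was at 119, 134, 118 TPM in Ctrl colon and 3.55, 5.74, 3.72 TPM in Ctrl bladder. In Y/T KO colon it was lower, at 36.9, 32.4, 29.5 TPM, and in Y/T KO bladder higher, at 24.5, 30.2, 43.7 TPM, so that the organs overlapped (organ difference 0.32 ± 0.22, adjusted p = 0.278). The change was -4.77 ± 0.31, adjusted p = 6.56e-05. Such segments have near-identical relatives and their reads can be split between them. Mir199a-1 (chr9:21496495-21496564, - strand) and the unnamed transcript Gm26621 (chr15:68334715-68337430, - strand) were both listed at 0 in the 3 Ctrl colon libraries and detected in Y/T KO colon, at 0.748, 0.790, 0.619 TPM and 1.23, 0.628, 1.44 TPM. In Y/T KO bladder they were at 1.56, 0.602, 0.325 TPM and 0.506, 0.368, 0.972 TPM, and the organs overlapped for both. Gm26621 overlaps Mir30b on the same strand. The changes passed with adjusted p = 0.0331 and 0.0473, at levels near 1 TPM.

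The remaining 6 had a called difference in both genotypes or a reversed one. Hrh1 (chr6:114397936-114483296, + strand), the histamine H1 receptor, reversed. It was at 9.66, 8.46, 8.81 TPM in Ctrl colon and 1.82, 1.95, 1.91 TPM in Ctrl bladder, and at 0.717, 1.14, 1.07 TPM in Y/T KO colon and 2.23, 2.63, 2.44 TPM in Y/T KO bladder, without overlap between organs in either genotype. The organ difference was 2.44 ± 0.19, adjusted p = 5.77e-05 in Ctrl and -1.0 ± 0.29, adjusted p = 0.0231 in Y/T KO. Olfml3 (chr3:103722222-103738001, - strand), a secreted matrix glycoprotein, also reversed. It was at 3.65, 4.46, 3.68 TPM in Ctrl colon and 16.3, 43.7, 53.8 TPM in Ctrl bladder, and at 18.5, 25.1, 22.9 TPM in Y/T KO colon and 18.7, 20.7, 13.4 TPM in Y/T KO bladder, where the organs overlapped in TPM as deposited and not after rescaling (organ difference -2.82 ± 0.40 in Ctrl and 0.62 ± 0.22, adjusted p = 0.0466 in Y/T KO). Htatip2 (chr7:49759115-49773975, + strand), which encodes the oxidoreductase-like protein TIP30, lost most of its difference. In Ctrl it was at 0.805, 0.433, 0.163 TPM in colon and 35.3, 35.5, 48.4 TPM in bladder, and in Y/T KO at 34.0, 64.4, 57.5 TPM in colon and 114, 96.2, 97.2 TPM in bladder. Both Y/T KO organs thus lay at or near the Ctrl bladder level or above it, and the organ difference went from -6.06 ± 0.44 to -0.75 ± 0.24, adjusted p = 0.0323.

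The difference grew for Mal, 1600014C10Rik and Isx. Mal (chr2:127633226-127656695, - strand), a raft protein of apical membranes in urothelium and of myelin, was at 255, 293, 244 TPM in Y/T KO bladder and 235, 319, 292 TPM in Ctrl bladder, which overlapped. In colon it was lower in Y/T KO, at 5.12, 5.13, 3.49 TPM, than in Ctrl, at 18.2, 16.9, 19.5 TPM, and the organ difference went from -3.68 ± 0.15 in Ctrl to -5.56 ± 0.19, adjusted p = 1.65e-06 in Y/T KO. For 1600014C10Rik (chr7:38183217-38197568, + strand) the bladder moved instead. Its level was 56.6, 49.9, 54.3 TPM in Y/T KO bladder against 12.8, 16.4, 14.0 TPM in Ctrl bladder, and 9.16, 9.01, 9.97 TPM in Y/T KO colon against 7.45, 9.25, 7.41 TPM in Ctrl colon (change -1.65 ± 0.17, adjusted p = 0.00314). Isx (chr8:74873173-74893506, + strand), an intestinal homeobox gene that controls vitamin A uptake, was at 4.28, 3.49, 7.24 TPM in Y/T KO colon and 1.42, 1.06, 0.926 TPM in Ctrl colon. It was listed at 0 in Y/T KO bladder and was at 0.548, 0.622, 0.266 TPM in Ctrl bladder, and the change passed with adjusted p = 0.00997.

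**Figure D2:**
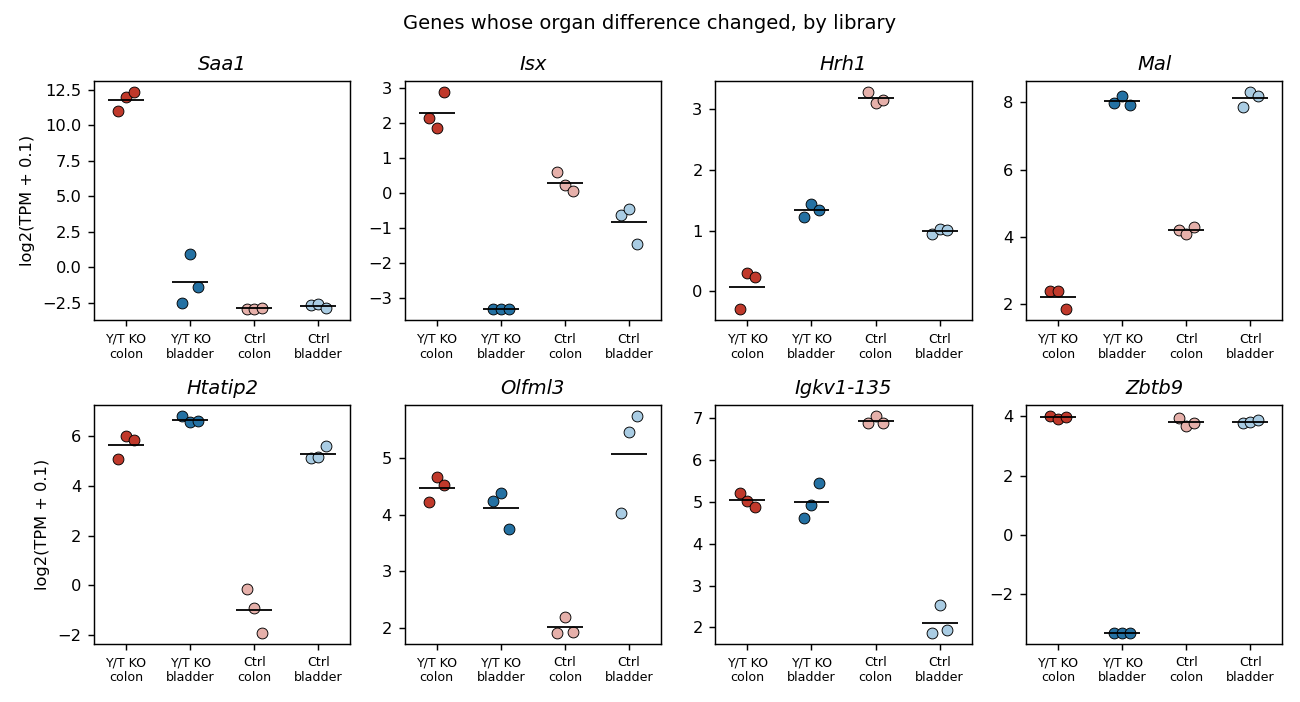
Level of 8 of the 12 changed genes in each library. Vertical axes are log2 of TPM as deposited plus 0.1, points are libraries and bars are group means, with 3 libraries per group. Saa1 is high only in Y/T KO colon, Htatip2 and Olfml3 are low only in Ctrl colon, Hrh1 is higher in colon in Ctrl and higher in bladder in Y/T KO, and Zbtb9 and Isx sit at the floor of the axis, listed at 0, in Y/T KO bladder.

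The calls were not equally firm. Zbtb9, Igkv1-135 and Saa1 stayed called in 11 other settings and when any of the 12 libraries was left out. Hrh1, Htatip2, 1600014C10Rik and Isx were lost only without the 3 bladder libraries that stood apart (adjusted p = 0.0534, 0.0943, 0.154 and 0.155), and kept their sign there. Without those libraries the Y/T KO organ difference itself was not called for Hrh1 (adjusted p = 0.253), Htatip2 (adjusted p = 0.153) and Olfml3 (adjusted p = 0.17). Dcaf6, Mal, Mir199a-1, Olfml3 and Gm26621 stayed called in 4, 8, 3, 2 and 2 of the 12 fits that left out 1 library. Without the 3 bladder libraries that stood apart, their changes were -1.10, -1.69, 3.42, 3.87 and 4.08. The calls of Dcaf6, Mal, Mir199a-1 and Gm26621 were lost there too, and that of the Olfml3 change was not.

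TEAD factors bind the hexamer GGAATG, which reads CATTCC on the other strand. It was searched in the 250 bases before each annotated start, taken from RefSeq promoter windows (GRCm38.p6), and was present in 4153 of 32851 windows (12.6%) and in 11.1% of the 15474 windows of tested genes. Of the 12 changed genes 9 had a window, 14 windows in all, and 4 of these windows, of 4 genes, held the hexamer. These 4 are shown because they are the changed genes in which the TEAD hexamer was found, with the hexamer in capitals and the sequence read 5′ to 3′ on the gene's strand.
Htatip2 (chr7:49759262-49759511, + strand; hexamer 186 bases before the start): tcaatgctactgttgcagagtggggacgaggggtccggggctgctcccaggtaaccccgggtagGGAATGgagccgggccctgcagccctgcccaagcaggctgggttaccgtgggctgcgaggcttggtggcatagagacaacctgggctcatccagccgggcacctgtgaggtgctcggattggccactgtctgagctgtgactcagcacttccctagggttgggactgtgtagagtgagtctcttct
Isx (chr8:74872924-74873173, + strand; 124 bases before the start): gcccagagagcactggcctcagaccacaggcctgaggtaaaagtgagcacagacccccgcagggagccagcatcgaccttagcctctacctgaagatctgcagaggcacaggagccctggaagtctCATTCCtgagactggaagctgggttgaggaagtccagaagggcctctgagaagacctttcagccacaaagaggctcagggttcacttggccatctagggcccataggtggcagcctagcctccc
Mal (chr2:127656696-127656945, - strand; 89 bases before the start): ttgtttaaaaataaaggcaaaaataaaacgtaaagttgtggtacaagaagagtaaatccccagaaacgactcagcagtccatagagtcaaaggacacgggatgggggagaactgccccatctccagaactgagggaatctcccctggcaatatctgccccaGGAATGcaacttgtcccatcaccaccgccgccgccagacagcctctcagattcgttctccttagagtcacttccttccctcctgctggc
Olfml3 (chr3:103738002-103738251, - strand; 64 bases before the start): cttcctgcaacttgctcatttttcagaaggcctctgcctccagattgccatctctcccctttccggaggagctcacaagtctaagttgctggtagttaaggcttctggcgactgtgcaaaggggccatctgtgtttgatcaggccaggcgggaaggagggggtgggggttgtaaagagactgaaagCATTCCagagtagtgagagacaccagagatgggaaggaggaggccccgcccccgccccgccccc
The window of the other, upstream start of Htatip2 and the windows of Saa1, Hrh1, Zbtb9, Dcaf6 and 1600014C10Rik did not hold these letters. A match is a description of the sequence and does not show binding. Saa1, the gene with the largest change among the 12, has the window chr7:46742981-46743230, - strand, which reads as follows.
Saa1 (no hexamer): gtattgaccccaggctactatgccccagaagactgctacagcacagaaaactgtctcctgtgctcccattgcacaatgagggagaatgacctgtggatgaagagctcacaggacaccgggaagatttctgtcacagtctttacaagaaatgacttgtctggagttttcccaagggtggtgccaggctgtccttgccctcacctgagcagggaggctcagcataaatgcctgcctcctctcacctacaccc

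The hairpin of Mir199a-1 (chr9:21496495-21496564, - strand, 70 bases) gives both strands of miR-199a, which are known in smooth muscle and other mesenchyme. The mature sequences are shown with the seed, bases 2 to 8, in capitals. Libraries of polyadenylated RNA do not measure mature miRNA, so that the values above are those of a longer transcript over the hairpin.
mmu-miR-199a-5p: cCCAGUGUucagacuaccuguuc
mmu-miR-199a-3p: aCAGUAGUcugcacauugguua

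The smooth muscle contractile apparatus remained far higher in bladder when YAP and TAZ were deleted. Of 28 listed and tested genes, 27 were higher in Y/T KO bladder and none in Y/T KO colon, against 25.1% of all genes tested higher in bladder. The median organ difference was -1.87 in Y/T KO and -2.0 in Ctrl, beside 0.02 for all genes in either genotype. The summed level of the 28 genes ran from 12323 to 14134 TPM in Y/T KO colon and from 31945 to 52821 TPM in Y/T KO bladder. In Ctrl it ran from 15255 to 18707 TPM in colon and from 59050 to 72218 TPM in bladder, so that in both organs the genotypes did not overlap. Acta2, smooth muscle actin, was at 981, 1227, 937 TPM in Y/T KO colon and 8194, 4896, 4685 TPM in Y/T KO bladder. Its organ difference was -2.18 ± 0.22, adjusted p = 0.000201, and -2.15 ± 0.16 in Ctrl. Myh11, the smooth muscle myosin heavy chain whose promoter drove Cre, was at 189, 229, 168 TPM in colon and 2722, 1915, 1499 TPM in bladder, a difference of -3.08 ± 0.22, adjusted p = 4.87e-05 (-2.43 ± 0.11 in Ctrl). The exception was Myl6, a myosin light chain found in most cells, at 2389.9, 2812, 2444 TPM in colon and 4144, 3083, 2930.2 TPM in bladder (-0.12 ± 0.14, adjusted p = 0.513).

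Within the contractile list the change was not uniform. The difference moved toward colon, which means it shrank, at 19 of 28 genes and toward bladder at 9, and none passed the adjusted test. Cald1, the actin-binding protein caldesmon, went from -2.98 ± 0.19 in Ctrl to -1.99 ± 0.17 in Y/T KO (unadjusted p of the change 0.00419, adjusted p = 0.234). Myh11 and the Z-disc-associated Synpo2 went the other way, with changes of -0.66 ± 0.26 and -0.68 ± 0.24 (unadjusted p = 0.0286 and 0.0149). The direction of the list rests on the bladder libraries that stood apart, since without them 12 of 28 genes moved toward colon and 16 toward bladder.

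Caveolae and the dystrophin complex anchor the contractile membrane. Of 14 genes, 12 were higher in Y/T KO bladder and none in Y/T KO colon, with a median of -1.72 (-1.57 in Ctrl). Their summed level was 327 to 415 TPM in Y/T KO colon and 875 to 1157 TPM in Y/T KO bladder. Cav1, the coat protein of caveolae, was at 39.1, 66.4, 44.5 TPM in colon and 219, 115, 104 TPM in bladder (-1.23 ± 0.31, adjusted p = 0.0155), and Dtna, the dystrophin partner dystrobrevin, at 2.42, 5.18, 3.61 TPM and 53.0, 36.9, 38.0 TPM (-3.25 ± 0.28, adjusted p = 0.000112). The 2 that were not called were Utrn, a dystrophin relative of many tissues (0.07 ± 0.22, adjusted p = 0.812), and Cavin4, a muscle caveolar protein that was at 0.361, 10.8, 13.1 TPM in Y/T KO bladder and so followed the striated muscle libraries (-2.50 ± 1.31, adjusted p = 0.159).

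Of 20 listed receptors of smooth muscle 19 were tested, with 5 higher in Y/T KO colon, 9 higher in Y/T KO bladder and 5 not called (25.7% and 25.1% of all genes, so that the share higher in colon is near that of all genes), and a median of -0.83 (-0.37 in Ctrl). P2rx1, the ATP-gated channel through which nerves contract the bladder, had the largest difference of the list. It was at 1.97, 2.24, 2.56 TPM in Y/T KO colon and 592, 647, 580.4 TPM in Y/T KO bladder, a difference of -7.75 ± 0.14, adjusted p = 1.55e-07, and of -7.69 ± 0.28 in Ctrl. Avpr1a, the vasopressin V1a receptor, was at 1.48, 1.28, 0.871 TPM in colon and 42.9, 33.4, 29.9 TPM in bladder (-4.51 ± 0.24; Ctrl -4.48 ± 0.23). Chrm3, the muscarinic receptor that contracts both organs, was at 0.585, 1.12, 0.625 TPM in colon and 8.87, 6.46, 7.22 TPM in bladder (-2.90 ± 0.30, adjusted p = 0.000238; Ctrl -2.78 ± 0.34). Chrm2, the other muscarinic receptor of smooth muscle, was at 3.23, 1.40, 1.34 TPM and 1.79, 1.73, 1.60 TPM and the organs overlapped (0.36 ± 0.38, adjusted p = 0.462). Among those higher in colon, Htr2b, a serotonin receptor, was at 9, 4.18, 5.85 TPM in colon and 1.01, 1.07, 1.24 TPM in bladder (2.61 ± 0.32, adjusted p = 0.00054; Ctrl 2.80 ± 0.40). Ptger4, Tacr1, Htr4 and Bdkrb2, receptors of prostaglandin E2, substance P, serotonin and bradykinin, were higher in colon by 1.41, 1.39, 1.38 and 0.91. Adrb3, the beta-3 adrenoceptor that relaxes the detrusor, was at 0.980, 0.464, 1.19 TPM in colon and 8.84, 11.3, 8.11 TPM in bladder (-3.09 ± 0.37; Ctrl -1.33 ± 0.45; unadjusted p of the change 0.0155, adjusted p = 0.304). Of this list only Hrh1 had a called change.

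Genes of calcium and potassium handling leaned toward bladder in both genotypes. Of 20 genes, 12 were higher in Y/T KO bladder and 2 in Y/T KO colon (25.1% and 25.7% of all genes). The median was -1.46 (-1.27 in Ctrl). At an unadjusted p under 0.05, 4 moved toward bladder and 1 toward colon (5.6% and 6.64% of all genes), and no change was called. The L-type calcium channel Cacna1c was at 3.56, 4.11, 3.10 TPM in colon and 18.2, 18.6, 17.6 TPM in bladder (-2.04 ± 0.17, adjusted p = 9.1e-05), and Atp2b4, a calcium pump of the plasma membrane, at 5.4, 15.3, 8.86 TPM and 132, 111, 87.9 TPM (-3.31 ± 0.37, adjusted p = 0.000429). The 2 higher in colon were the store-operated calcium entry partners Orai1 (0.98 ± 0.19, adjusted p = 0.00422) and Stim1 (0.50 ± 0.16, adjusted p = 0.0394). Without the 3 bladder libraries that stood apart, their differences were smaller, at 0.77 and 0.30. With TPM as deposited 13 genes of the list were higher in Y/T KO bladder and 1 in Y/T KO colon. Ano1, a chloride channel of smooth muscle and interstitial cells, was at 68.2, 101, 105 TPM in colon and 80.3, 83.3, 78.1 TPM in bladder (0.43 ± 0.18, adjusted p = 0.0832).

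**Figure D3:**
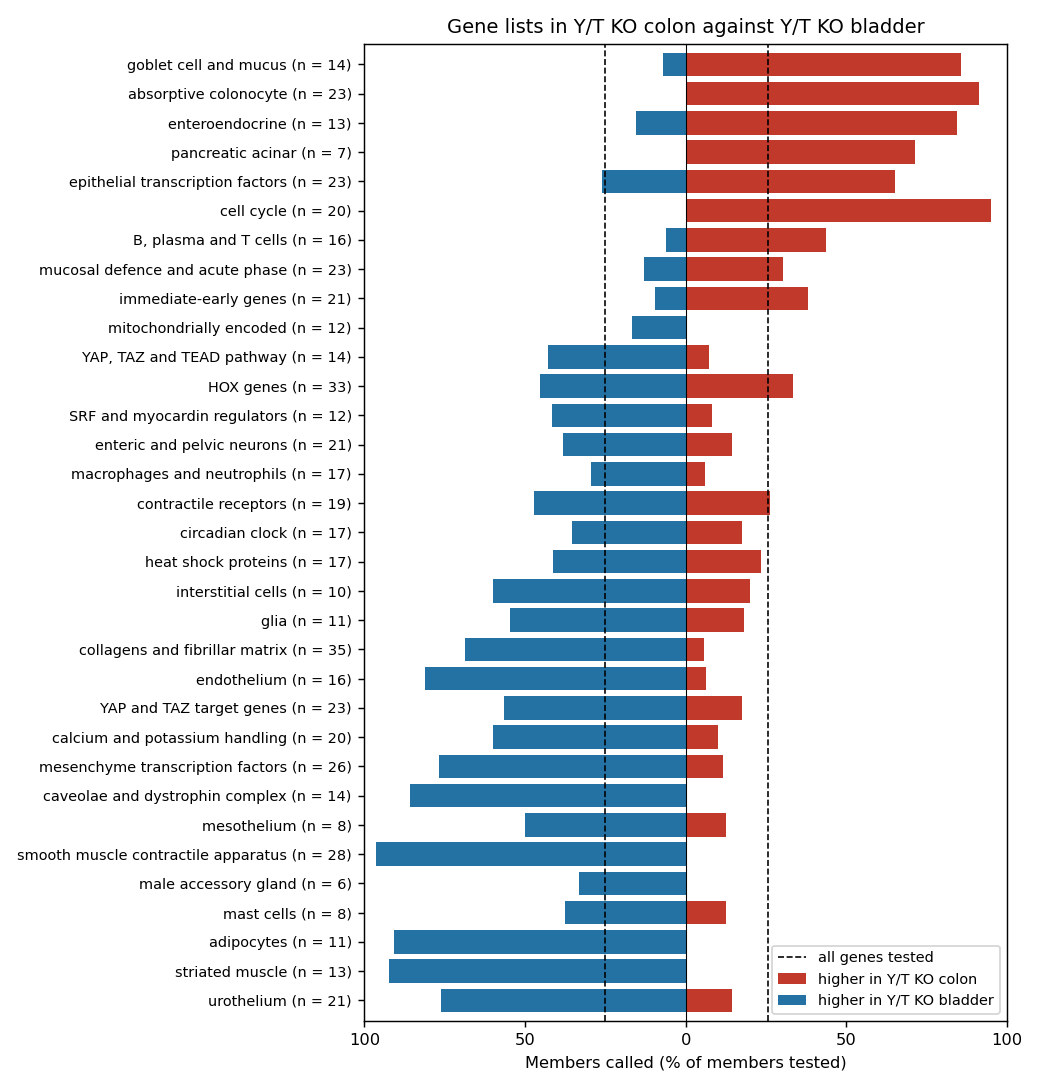
Share of each gene list called higher in Y/T KO colon (red, to the right) or in Y/T KO bladder (blue, to the left), in percent of the members tested, with n the number tested; dashed lines mark the share over all 18424 genes (25.7% and 25.1%). The absorptive colonocyte list (21 of 23) and the contractile list (27 of 28) are called in opposite directions, and the HOX genes are called in both directions (11 and 15 of 33).

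The deleted pathway and its targets leaned toward bladder in both genotypes. Of 16 genes of the YAP, TAZ and TEAD pathway 14 were tested, with 6 higher in Y/T KO bladder and 1 in Y/T KO colon, and a median of -0.36 (-0.49 in Ctrl). Both deleted genes were higher in bladder, with organ differences of -0.41 ± 0.11, adjusted p = 0.0157 for Yap1 and -1.18 ± 0.16, adjusted p = 0.000746 for Wwtr1. The Yap1 difference was not called without the 3 libraries (-0.37, adjusted p = 0.212). Lats2, a Hippo kinase, was at 6.85, 6.92, 5.60 TPM in colon and 16.5, 19.8, 23.2 TPM in bladder (-1.32 ± 0.19, adjusted p = 0.00104), and Vgll4, a TEAD co-repressor, was the gene higher in colon (0.49 ± 0.15, adjusted p = 0.0311). Of 24 YAP and TAZ target genes 23 were tested, with 13 higher in bladder and 4 in colon, and a median of -1.12 (-1.05 in Ctrl). Without the 3 libraries the counts were 9 and 2 for the targets and 4 and 1 for the pathway. The kinase receptor Axl was at 46.1, 51.2, 42.9 TPM in colon and 141, 126, 127 TPM in bladder (-1.22 ± 0.11, adjusted p = 0.000139), and the membrane repair protein Myof at 29.7, 24.9, 20.9 TPM and 200.4, 206, 162 TPM (-2.64 ± 0.17, adjusted p = 3.18e-05). Nuak2, an AMPK-related kinase, went the other way, at 23.9, 26.7, 22.3 TPM in colon and 4.68, 5.17, 7.17 TPM in bladder (2.37 ± 0.20, adjusted p = 8.83e-05). The often-used targets Cyr61 and Ctgf, at 16.4, 64.0, 73.1 TPM and 59.2, 143, 173 TPM in Y/T KO bladder, overlapped between organs (0.10 ± 0.59, adjusted p = 0.897 and -0.26 ± 0.43, adjusted p = 0.637). Cyr61 was at 30.8, 41.5, 42.0 TPM in Y/T KO colon. For both genes the higher bladder values were those of the libraries that stood apart, and without the 3 libraries the differences were 1.52 and 0.72. Ankrd1, another such target, was under the filter, at 0.128, 0.342, 0.149 TPM in Y/T KO colon and 0.154, 0.127, 0.692 TPM in Y/T KO bladder, against 4.6, 2.43, 3.75 TPM in Ctrl colon and 9.55, 125, 6.35 TPM in Ctrl bladder.

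Of 12 regulators of the contractile program around serum response factor and myocardin, 5 were higher in Y/T KO bladder and 1 in colon. The shares of all genes were 25.1% and 25.7%, and the list median was -0.61 (-0.78 in Ctrl). Myocd, the myocardin co-activator of contractile genes, was at 1.27, 3.20, 1.41 TPM in colon and 22.8, 18.3, 17.3 TPM in bladder (-3.09 ± 0.35, adjusted p = 0.000359; Ctrl -3.79 ± 0.47). Srf itself was at 16.1, 32.1, 20.8 TPM and 37.4, 34.4, 33.3 TPM and was not called (-0.39 ± 0.24, adjusted p = 0.22). Klf4, a factor of differentiated epithelium that represses contractile genes in smooth muscle, was higher in colon, at 309.6, 304, 264 TPM against 55.0, 66.0, 69.0 TPM (2.48 ± 0.14, adjusted p = 1.53e-05; Ctrl 2.43 ± 0.36).

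HOX genes, which carry positional identity along the body axis, were called in both directions. Of 39 listed genes 33 were tested. In Y/T KO 11 were higher in colon and 15 in bladder (25.7% and 25.1% of all genes), and in Ctrl 13 and 16. The median was -0.53 (-0.47 in Ctrl). With TPM as deposited the counts were 8 and 16, and without the 3 libraries 7 and 10. The direction varied within and between clusters. Hoxa2, Hoxa3, Hoxa5, Hoxa6, Hoxa7 and Hoxa9 were higher in colon, whereas Hoxa10 and Hoxa11 were higher in bladder (-0.47 and -2.06). In the HOXC cluster Hoxc6, Hoxc8, Hoxc9, Hoxc10 and Hoxc11 were listed at 0 in all 3 Y/T KO colon libraries. In Y/T KO bladder Hoxc6 was at 3.86, 2.94, 2.78 TPM and Hoxc10 at 6.15, 5.70, 6.24 TPM. Hoxd13, the hindmost HOXD gene, was at 105, 106, 102 TPM in Y/T KO colon and 22.5, 22.1, 21.6 TPM in Y/T KO bladder (2.51 ± 0.10, adjusted p = 3.72e-06; Ctrl 2.66 ± 0.16), while Hoxd8 was at 2.78, 2.80, 2.36 TPM and 22.8, 21.7, 22.7 TPM (-2.77 ± 0.16, adjusted p = 1.61e-05; Ctrl -1.95 ± 0.19). Hoxb9 was higher in colon at 27.5, 31.9, 30.2 TPM against 2.54, 4.16, 4.09 TPM (3.32 ± 0.23, adjusted p = 4.4e-05). Hoxb13, a gene of the hindgut and the prostate, was at 239, 344, 221 TPM in colon and 1.21, 40.7, 51.5 TPM in bladder, where the high values were those of the libraries with accessory gland RNA. Its difference was 4.50 ± 1.46, adjusted p = 0.0462 with all libraries and 7.95 (adjusted p = 8.67e-05) without them.

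No HOX gene had a called change. The smallest unadjusted p values were those of Hoxb2, whose difference went from -3.06 ± 0.27 in Ctrl to -1.03 ± 0.45 in Y/T KO (unadjusted p = 0.00271, adjusted p = 0.221), and of Hoxd8 (change -0.82 ± 0.23, unadjusted p = 0.00472, adjusted p = 0.24).

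**Figure D4:**
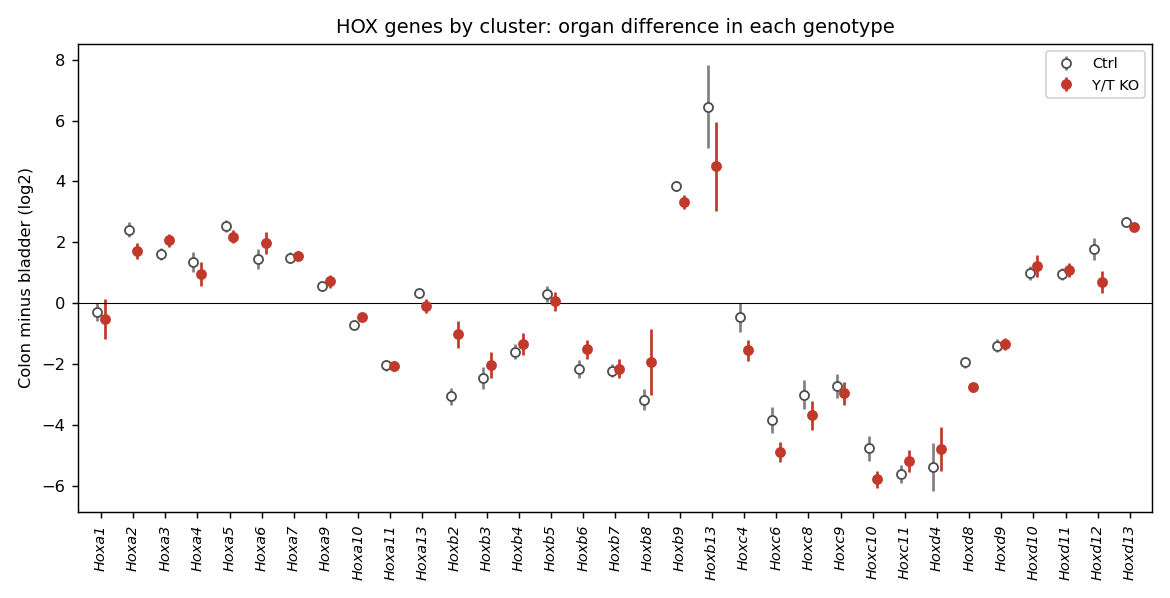
Organ difference (colon minus bladder, log2) of the 33 HOX genes tested, in Ctrl (open) and Y/T KO (red), with bars of 1 SE over 3 libraries per organ. Hoxd13 lies at 2.51 in Y/T KO and 2.66 in Ctrl, and Hoxb2 at -1.03 in Y/T KO and -3.06 in Ctrl; the HOXC values rest on libraries listed at 0 and depend on the pseudocount, and the wide bars of Hoxb13 come with the libraries that hold accessory gland RNA.

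Other transcription factors of the mesenchyme were mainly higher in bladder. Of 31 listed genes 26 were tested, with 20 higher in Y/T KO bladder and 3 in Y/T KO colon, and a median of -1.55 (-1.64 in Ctrl). Tbx5 and Tbx18, T-box factors, were higher in bladder, with differences of -6.32 ± 0.34 and -4.07 ± 0.29. In the other direction Nkx2-3, a gene of gut mesoderm, was at 17.0, 16.4, 15.5 TPM in Y/T KO colon and listed at 0 in the 3 Y/T KO bladder libraries. No change in this list was called, and the smallest unadjusted p was that of Twist2, a factor of fibroblasts (change 1.06 ± 0.33, unadjusted p = 0.00827, adjusted p = 0.271).

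Epithelial genes gave the largest organ differences of the comparison. By the rule for named genes, the 8 largest differences toward colon were those of Tff3, Mptx1, Spink4, Reg4, Saa1, Muc13, Zg16 and Muc3. Which cells made Saa1 was not tested, and the others are known products of intestinal epithelium. Tff3, a trefoil peptide of mucus, was at 4518, 4664, 4243 TPM in Y/T KO colon and listed at 0 in Y/T KO bladder. Zg16, a lectin of goblet cells, was at 18646, 15472, 10064 TPM in colon and 3.02, 2.67, 0.930 TPM in bladder (13.01 ± 0.47, adjusted p = 5.76e-06). Mptx1, a pentraxin of intestinal epithelium, was at 2525, 5598, 3119 TPM and 0, 0.221, 0.184 TPM, and varied among Ctrl colon libraries widely (2688, 2.89, 4.92 TPM). The 8 largest toward bladder were those of Upk3a, Upk2, Sptssb, Fam25c, Tnnc2, Sbp, Ivl and Snx31. Upk3a and Upk2, uroplakins of the urothelial plaque, were at 1136, 939, 837 TPM and 905, 642, 654 TPM in Y/T KO bladder and listed at 0 in Y/T KO colon. Tnnc2, a skeletal troponin, was at 24.4, 1402, 1474 TPM in Y/T KO bladder and listed at 0 in colon, and both it and Sbp are genes of the libraries that stood apart.

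Each epithelial list fell on its side. Of 24 absorptive colonocyte genes 23 were tested and 21 were higher in Y/T KO colon, none in Y/T KO bladder, with a median of 6.89 (8.15 in Ctrl). Vil1, the microvillus protein villin, was at 305, 323, 303 TPM in colon and 0.104, 0.186, 0.197 TPM in bladder (10.44 ± 0.19, adjusted p = 1.55e-07; Ctrl 10.43 ± 0.25). Of 15 goblet cell genes 14 were tested, with 12 higher in colon and 1, Sytl2, in bladder (-0.48 ± 0.13, adjusted p = 0.0177). Muc2, the main mucin of the colon, was under the filter with 0.917, 0.0854, 0.689 TPM in Y/T KO colon, and Fabp1 was listed at 0 there, which for genes of this abundance in colon can be a failed estimate. Of 13 enteroendocrine genes 11 were higher in colon, among them Chga at 72.1, 46.9, 35.8 TPM against 1.87, 1.73, 2.43 TPM (4.84 ± 0.28, adjusted p = 1.67e-05), while Cck and Nts were higher in bladder (-2.84 and -2.09). Of 23 urothelial genes 21 were tested, with 16 higher in Y/T KO bladder and 3 in Y/T KO colon, and a median of -6.96 (-7.54 in Ctrl). Upk1b, a uroplakin, was at 12.6, 5.42, 8.64 TPM in colon and 1418, 1223, 1190.5 TPM in bladder (-6.96 ± 0.29, adjusted p = 5.04e-06).

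The identity factors of the epithelia did the same. Of 23 epithelial transcription factors 15 were higher in Y/T KO colon and 6 in Y/T KO bladder. Hnf4a, a nuclear receptor of gut epithelium, was at 338, 361, 276 TPM in colon and 0.212, 0.215, 0.28 TPM in bladder (10.14 ± 0.17, adjusted p = 1.02e-07; Ctrl 10.56 ± 0.33). Cdx2 and Atoh1, which specify intestinal and secretory cells, were at 89.7, 65.4, 58.5 TPM and 59.9, 53.4, 35.3 TPM in colon and listed at 0 in Y/T KO bladder. Trp63 and Gata3, factors of the urothelium, were higher in bladder, with differences of -8.13 ± 0.29 and -7.47 ± 0.29, and -8.25 ± 0.27 and -7.54 ± 0.23 in Ctrl.

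Several epithelial differences depended on the bladder libraries with accessory gland RNA. Agr2, a disulfide isomerase of secretory cells, was at 11.4, 236, 264 TPM in Y/T KO bladder against 3546, 2876, 3829 TPM in colon, and its difference was 5.52 ± 1.27 with all libraries and 8.53 without those libraries. For Pigr, the receptor that carries IgA across epithelium, the values were 4.31 ± 1.49, adjusted p = 0.056 and 7.75, and for the goblet factor Spdef 3.88 ± 1.77, adjusted p = 0.119 and 7.94. Ceacam1 and Slc5a8, colonocyte membrane proteins, moved from 3.94 to 6.13 and from 5.47 to 9.68. Spink1, a protease inhibitor, was at 0.759, 9183, 177 TPM in Y/T KO bladder, and its difference went from 5.36 (adjusted p = 0.232) to 12.41 (adjusted p = 2.76e-05).

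In the urothelial list 14 of 21 genes moved toward colon, of which 8 passed an unadjusted p under 0.05, and 1 of the 7 that moved toward bladder did (6.64% and 5.6% of all genes). None passed after adjustment, and without the 3 libraries 2 of 21 passed toward colon. Krt5, the keratin of basal urothelial cells, was at 289, 285, 277 TPM in Y/T KO bladder and 423, 586, 537 TPM in Ctrl bladder, without overlap, and at most 1.17 TPM in colon. Its organ difference went from -9.58 ± 0.33 to -7.97 ± 0.24 (unadjusted p = 0.00358, adjusted p = 0.227). Krt15, another basal keratin, had a change of 1.05 ± 0.33 (unadjusted p = 0.00856, adjusted p = 0.272).

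Among genes of mucosal defence and the acute phase, 26 were listed and 23 tested. Of these, 7 were higher in Y/T KO colon, near the share of all genes (25.7%), and 3 in Y/T KO bladder (25.1% of all genes). The medians were 0.74 in Y/T KO and -0.68 in Ctrl. The difference moved toward colon at 18 of 23, of which 4 passed an unadjusted p under 0.05 (6.64% of all genes). Saa1 was the one change called. Duox2, which makes hydrogen peroxide at the gut surface, was at 20.7, 30.0, 77.0 TPM in colon and 0.313, 0.206, 0.238 TPM in bladder (6.94 ± 0.47, adjusted p = 3.68e-05; Ctrl 6.09 ± 0.28). Il1b, an inflammatory cytokine, was at 8.85, 4.07, 39.1 TPM and 4.32, 1.91, 4.91 TPM and was not called (1.95 ± 0.83, adjusted p = 0.0964). Several such genes were highest in 1 colon library: Nos2, the inducible nitric oxide synthase, was at 0.623, 0.12, 10.8 TPM and the neutrophil protein S100a8 at 8.69, 0, 63.9 TPM, with the highest value in mouse 780.

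Collagens and fibrillar matrix genes were higher in bladder, with a smaller median difference in Y/T KO. Of 36 listed genes 35 were tested. In Y/T KO 24 were higher in bladder and 2 in colon, and in Ctrl 30 and 1. The median organ difference was -1.10 in Y/T KO and -1.53 in Ctrl, and 25 of 35 genes moved toward colon, 16 of them at an unadjusted p under 0.05, against 1 of 10 toward bladder (6.64% and 5.6% of all genes). No change passed adjustment over all genes. Without the 3 bladder libraries 25 of 35 again moved toward colon, 9 at an unadjusted p under 0.05 (3.27% of all genes there), with medians of -1.13 and -1.66. With TPM as deposited the Y/T KO counts were 29 and 0.

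Tnc, the tenascin of remodeling tissue, was at 99.6, 91.0, 102 TPM in Y/T KO colon against 47.6, 48.9, 49.0 TPM in Ctrl colon, and at 83.3, 87.8, 56.5 TPM in Y/T KO bladder against 81.3, 132, 129 TPM in Ctrl bladder. The Y/T KO colon values lay above all other colon libraries, and the organ difference went from -0.94 ± 0.18, adjusted p = 0.00466 in Ctrl to 0.66 ± 0.19, adjusted p = 0.0239 in Y/T KO. The change of 1.60 ± 0.28 had an unadjusted p of 0.000128 and an adjusted p of 0.0819, and an adjusted p of 0.0243 without the 3 libraries, where the Y/T KO organ difference itself was not called (0.55, adjusted p = 0.0823). Col1a1, the main fibrillar collagen, was at 165, 259.5, 233 TPM in Y/T KO colon and 1119.6, 698, 625 TPM in Y/T KO bladder, against 187, 143, 143 TPM and 1046, 1323, 1676 TPM in Ctrl. Its difference went from -2.82 ± 0.20 to -1.60 ± 0.25 (unadjusted p = 0.00415, adjusted p = 0.234). Col18a1, a basement membrane collagen, was higher in Ctrl bladder (-1.74 ± 0.11, adjusted p = 2.08e-05) and not called in Y/T KO (-0.52 ± 0.26, adjusted p = 0.135; unadjusted p of the change 0.00174). Dcn, decorin, was at 801, 800.2, 732 TPM in Y/T KO colon and 5059.6, 4428, 4008 TPM in Y/T KO bladder, with differences of -2.25 ± 0.11 and -2.10 ± 0.15 in Ctrl, and Fbn1, fibrillin, had -1.06 ± 0.20 and -0.94 ± 0.14. Postn, periostin, was the other gene higher in Y/T KO colon (0.67 ± 0.16, adjusted p = 0.0107).

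**Figure D5:**
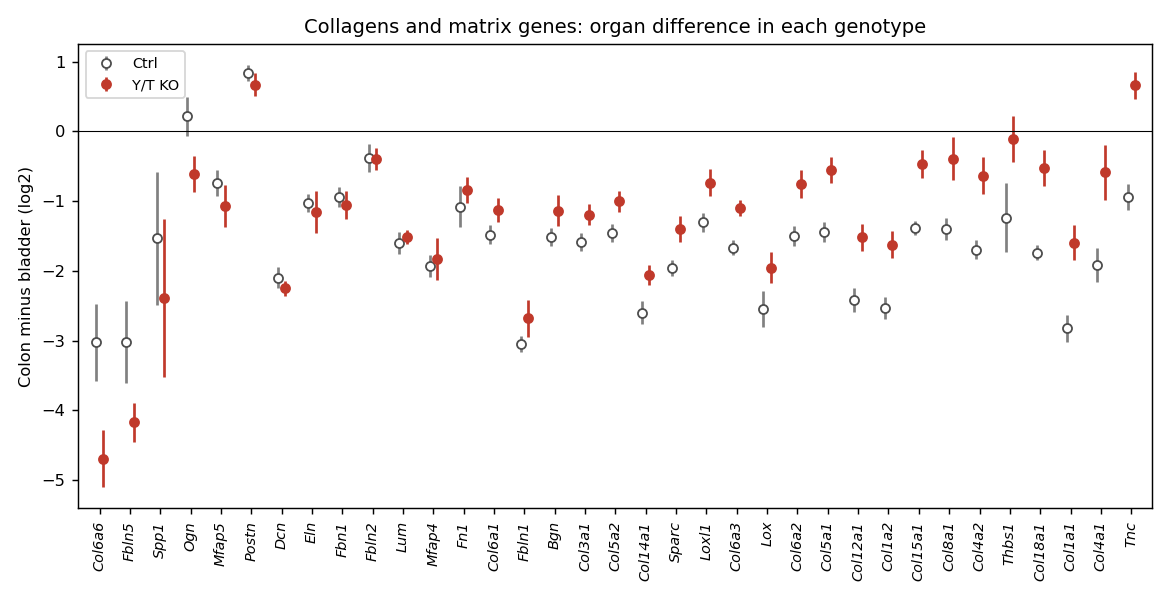
Organ difference (colon minus bladder, log2) of the 35 collagen and matrix genes tested, ordered by the size of the change, in Ctrl (open) and Y/T KO (red), with bars of 1 SE over 3 libraries per organ. From Lum rightward every red point lies above its open one, and Tnc at the right end moves from -0.94 to 0.66.

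Of 24 listed neuronal genes 21 were tested. In Y/T KO 8 were higher in bladder and 3 in colon (25.1% and 25.7% of all genes), against 2 and 3 in Ctrl. Without the 3 libraries that stood apart the Y/T KO counts were 4 and 3, and with TPM as deposited 13 and 2. The medians were -0.69 and 0.07, and 18 of 21 genes moved toward bladder, of which none passed an unadjusted p under 0.05. The neuronal level of Ctrl bladder was itself uneven, with a summed level of 360 to 785 TPM, against 571 to 712 TPM in Y/T KO bladder and 270 to 414 TPM in Y/T KO colon. Snap25, a synaptic vesicle fusion protein, illustrates this with 31.5, 16.2, 2.25 TPM in Ctrl bladder and 13.2, 17.4, 14.9 TPM in Y/T KO bladder. Uchl1, an abundant neuronal ubiquitin hydrolase, was at 27.9, 22.3, 20.6 TPM in Y/T KO colon and 546, 504, 428 TPM in Y/T KO bladder (-4.11 ± 0.16, adjusted p = 2.79e-06; Ctrl -3.56 ± 0.18). Uchl1 alone made up most of the summed level in Y/T KO bladder and a small part of that in Y/T KO colon. The higher sum in bladder thus does not hold for the list as a whole. Vip, the relaxant peptide of enteric neurons, was higher in colon at 153, 81.2, 111 TPM against 18.3, 21.1, 22.2 TPM (2.71 ± 0.24, adjusted p = 0.000112). Of 11 glial genes tested, 6 were higher in bladder and 2 in colon, the latter with Gfap, a marker of enteric glia, at 4.67, 4.61, 6.90 TPM in colon and 0.542, 0.334, 0.480 TPM in bladder (3.56 ± 0.29, adjusted p = 8.79e-05). Among 10 genes of interstitial cells, which pace and relay signals to muscle, 6 were higher in bladder and 2 in colon, and 4 and 1 without the 3 libraries. Kit, the receptor that marks pacemaker cells, was not called in Y/T KO (48.4, 26.2, 20.3 TPM in colon, 24.6, 23.4, 28.0 TPM in bladder, 0.50 ± 0.30, adjusted p = 0.212; Ctrl 1.5 ± 0.24).

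Vessel genes were higher in bladder. Of 16 endothelial genes 13 were higher in Y/T KO bladder and 1 in Y/T KO colon, with medians of -1.12 and -1.15 in Ctrl. Pecam1, an adhesion protein of endothelium, was at 34.2, 42.1, 29.2 TPM in colon and 96.0, 100.2, 99.0 TPM in bladder (-1.22 ± 0.15, adjusted p = 0.000579). Of 17 macrophage and neutrophil genes 5 were higher in Y/T KO bladder, against 11 in Ctrl bladder, 1 was higher in colon in each genotype, and 16 of 17 moved toward colon. The share higher in Y/T KO bladder is near that of all genes (25.1%). Of the 16, 4 passed an unadjusted p under 0.05 (6.64% of all genes) and none was called. The complement genes C1qa, C1qb and C1qc, made by macrophages, had differences of -0.22 ± 0.20, -0.26 ± 0.18 and -0.13 ± 0.20 in Y/T KO and of -1.10 ± 0.13, -1.05 ± 0.14 and -0.97 ± 0.13 in Ctrl. C1qa was at 144, 209, 231 TPM in Y/T KO colon and 314, 217, 283 TPM in Y/T KO bladder (unadjusted p of the change 0.00452, adjusted p = 0.239). Of 17 genes of B, plasma and T cells 16 were tested, with 7 higher in Y/T KO colon and 1, Ighm, in Y/T KO bladder (-3.27 ± 0.83, adjusted p = 0.0198). Igha, the heavy chain of IgA, was at 2289.9, 1982, 1468 TPM in colon and 25.5, 41.8, 81.1 TPM in bladder, a difference of 5.68 ± 0.42, adjusted p = 0.000103, and of 7.61 ± 0.25 in Ctrl (unadjusted p of the change 0.00445, adjusted p = 0.238).

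Fat and striated muscle genes marked the bladder. Of 12 adipocyte genes 11 were tested and 10 were higher in Y/T KO bladder, with a median of -4.26 in Y/T KO and -2.96 in Ctrl. Adipoq, the fat hormone adiponectin, was at 4.62, 4.45, 4.75 TPM in Y/T KO colon and 154, 276, 203 TPM in Y/T KO bladder (-5.17 ± 0.23, adjusted p = 5.76e-06). In Ctrl it ranged more widely, 19.9, 23.4, 4.66 TPM in colon and 212, 94.8, 46.9 TPM in bladder (-2.65 ± 0.77, adjusted p = 0.0288), and the change had an unadjusted p of 0.0175 (adjusted p = 0.311). The summed adipocyte level was 3182 to 5331 TPM in Y/T KO bladder, 316 to 390 TPM in Y/T KO colon and 1898 to 4138 TPM in Ctrl bladder, and its part in other results was not tested. Of 13 striated muscle genes tested 12 were higher in Y/T KO bladder, and 7 were without the libraries that stood apart. Of 18 male accessory gland genes 6 were tested, with 2 higher in Y/T KO bladder, Sbp and Defb42. Of 8 mesothelial genes 4 were higher in bladder and 1 in colon. Of 8 mast cell genes tested 3 were higher in bladder and 1 in colon (25.1% and 25.7% of all genes). Cpa3, a mast cell protease, had a difference of -3.07 ± 0.36, adjusted p = 0.000406. Actc1, cardiac actin, was higher in all 3 Y/T KO bladder libraries (756, 308, 308 TPM against 4.78, 10.1, 5.99 TPM in colon, -5.68 ± 0.41, adjusted p = 7.98e-05).

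Some larger changes missed the adjusted threshold. Nov, a matricellular protein of the family of Ctgf, was at 82.6, 90.8, 73.2 TPM in Ctrl colon and 10.2, 10.3, 10.2 TPM in Ctrl bladder, and at 20.9, 31.3, 34.6 TPM in Y/T KO colon and 11.4, 21.3, 18.3 TPM in Y/T KO bladder. Its difference went from 3.25 ± 0.11 to 1.05 ± 0.30, adjusted p = 0.023, a change of -2.20 ± 0.34, adjusted p = 0.0579. Timp1, an inhibitor of matrix proteases, was at 218, 290.3, 175 TPM in Ctrl bladder and 128, 37.5, 104 TPM in Y/T KO bladder, and at 64.3, 44.2, 122 TPM in Y/T KO colon, where the organs overlapped (change 2.38 ± 0.64, adjusted p = 0.227). Klk1, tissue kallikrein, had a larger difference in Y/T KO, at 2198, 2078, 2296 TPM in colon and 1.25, 0.365, 1.78 TPM in bladder against 1082, 778, 1269 TPM and 7.17, 4.03, 1.23 TPM in Ctrl (change 2.80 ± 0.88, adjusted p = 0.282). Ms4a8a, a membrane protein of differentiated colon epithelium, was at 10, 5.91, 12.7 TPM in Y/T KO bladder and 0.599, 0.374, 0 TPM in Ctrl bladder, with 918, 867, 1088 TPM in Y/T KO colon (change -4.67 ± 0.79, adjusted p = 0.0819). Cacul1 (-2.57 ± 0.68, adjusted p = 0.224), Mylk2 (-4.08 ± 1.32, adjusted p = 0.282), Phkg1 (-3.28 ± 0.72, adjusted p = 0.166) and Chchd2-ps (3.09 ± 0.68, adjusted p = 0.167) were also named by the rule. Of these, Mylk2 is a kinase of skeletal muscle that followed the striated muscle libraries. Phkg1 overlaps Chchd2 and was at 6.29, 17.0, 18.0 TPM in Y/T KO bladder and 3.73, 1.48, 1.58 TPM in Ctrl bladder. Within each genotype it too was highest in the bladder libraries with striated muscle RNA.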

How the data were processed

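Poly(A) RNA from 12 organs of 9 mice was sequenced (TruSeq Stranded mRNA). Per the labels the authors aligned reads with HISAT2 to GRCm38 and assembled with StringTie. The deposited tables hold TPM, FPKM and per-base coverage for each transcript or gene. Versions are not given in the sources used here. TPM is a share of each library, so that abundant genes of 1 organ lower all others. TPM was therefore summed by gene ID (54532 genes) and divided by median-of-ratios size factors over 18144 genes (0.878 to 0.99 in colon, 1.06 to 1.14 in bladder). The 18424 genes that reached 0.5 TPM in 3 or more Y/T KO libraries were fitted on log2(TPM + 0.1) with limma 3.58.1 in R 4.3.3 (trend and robust). Depth was taken from coverage times length, 2.80 to 3.94 gigabases. The fit was tested on simulated data.

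Gene names were chosen by a rule: the 8 largest called differences in each direction (at least 10 TPM, organs not overlapping), every called change, and up to 6 changes in each class at unadjusted p under 0.01. Members and gene lists were chosen with earlier results of these data known. Of the listed symbols Svs7 was not matched. Labels give no batch. Mouse numbers pair some samples, since Y/T KO mice 783 and 780 gave both organs. Deviations from group means correlated within them at 0.0624 and 0.0487, and at -0.0146 in Ctrl mouse 788, and the consensus correlation was 0.0566 in Y/T KO and 0.0471 over 12 libraries. Each library is a separate organ sample. Alternatives covered the pseudocount, filter, scaling, FPKM, trend, mouse block and leaving out libraries. Promoter and miRNA sequences are from RefSeq (GRCm38.p6). Python 3.11.15, pandas 2.3.3 and matplotlib 3.10.9 were used.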

Additional observations from a re-analysis of the deposited data

Results flagged for a closer look

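In 12 genes the organ difference in Y/T KO differed from that in Ctrl by the test of the change itself, with limma's adjusted p under 0.05 over 18424 genes. Toward colon the changes on the log2 scale were 13.15 for Saa1, 5.31 for Htatip2, 3.44 for Olfml3, 7.19 for Zbtb9, 4.38 for Isx, 4.36 for Mir199a-1 and 3.95 for Gm26621. The last 4 of these were listed at 0 in a whole group, and their size depends on the pseudocount. Toward bladder they were -4.77 for Igkv1-135, -3.43 for Hrh1, -1.89 for Mal, -1.65 for 1600014C10Rik and -1.18 for Dcaf6. Zbtb9, Dcaf6 and Gm26621 overlap another gene on the same strand, and Saa1 and Igkv1-135 have near-identical relatives. Groups of 3 libraries were not screened for single outlying libraries.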

How the results depend on the processing

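No called difference of a named gene changed its sign under an alternative. Values that were not called did, such as Chrm2 in Y/T KO (-0.04 to 0.57 with 1 library left out), and so did the median change of several lists without the 3 bladder libraries with accessory gland RNA, among them contractile genes (0.12 to -0.16) and YAP and TAZ targets (-0.19 to 0.16). The Y/T KO median of immediate-early genes was 0.24, and -0.03 with TPM as deposited. Of values for whole comparisons 272 stayed within 1.5 times and 18 moved, of list counts 1107 and 81, and of single genes 966 stayed, 71 lost their call and 14 gained it. Leaving out the 3 bladder libraries gave 5535 calls for Y/T KO colon against Y/T KO bladder (2946 higher in colon, 2589 in bladder) and 19 called changes, 10 of them toward bladder. Changes toward bladder numbered 8 with a pseudocount of 1 TPM or 0.5 TPM and 9 without trend and robust fitting. With 1 library left out, organ differences in Y/T KO ran from 7890 to 8945 and called changes from 8 (without Y/T KO colon 780 or Y/T KO bladder 783) to 33 (without Y/T KO colon 759), with 4 to 18 toward colon (fewest without Y/T KO colon 780, Ctrl bladder 785 or Ctrl bladder 788) and 3 to 15 toward bladder (fewest without Y/T KO bladder 783). The cause was not tested. With the mouse as a block the called changes were 13 (7 toward colon, 6 toward bladder), Nov among them. No other named gene changed its call with the block, and the Y/T KO organ differences numbered 9539. The Ctrl libraries alone could not be fitted with the block because 1 mouse is paired. In simulated data with 200 changed genes, 55.5% of 4-fold and 13.5% of 2-fold changes of the organ difference were recovered, so that small changes were often not detectable with 3 libraries per group. Both Y/T KO organs of mice 783 and 780 are not independent.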

Other observations

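Genes of the cell cycle were higher in Y/T KO colon, 19 of 20 against 25.7% of all genes, with a median of 1.95 (1.67 in Ctrl). Birc5, which guides chromosome segregation, was at 108, 86.7, 114 TPM in Y/T KO colon and 16.8, 13.0, 9.98 TPM in Y/T KO bladder (3.25 ± 0.21, adjusted p = 3e-05). The exception was Rrm2 (0.56 ± 0.34, adjusted p = 0.206). The replication licensing genes Mcm2 and Mcm5 had larger differences in Y/T KO (1.53 ± 0.21 and 2.41 ± 0.24) than in Ctrl (0.37 ± 0.18 and 1.13 ± 0.23), with unadjusted p of the change 0.00149 and 0.00377 and adjusted p = 0.188 and 0.23.

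Immediate-early genes, which respond to stimuli within minutes, moved toward colon at 19 of 21 genes tested, of which 3 passed an unadjusted p under 0.05 (6.64% of all genes) and none was called. In Y/T KO 8 were higher in colon and 2 in bladder, and in Ctrl 2 and 4. Junb, an AP-1 subunit, was at 18.7, 37.9, 38.8 TPM in Y/T KO colon and 12.8, 9.41, 13.7 TPM in Y/T KO bladder, against 17.2, 12.6, 14.9 TPM and 29.6, 72.8, 34.0 TPM in Ctrl. Its difference went from -1.24 ± 0.35 in Ctrl to 1.62 ± 0.30, adjusted p = 0.00354 in Y/T KO (unadjusted p of the change 0.000133, adjusted p = 0.0819). Without the 3 bladder libraries that hold accessory gland RNA, which leaves 1 Y/T KO bladder library, 13 of 21 passed an unadjusted p under 0.05 toward colon (3.27% of all genes there). Fos varied widely within Ctrl bladder, at 12.4, 212, 84.0 TPM.

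Of 17 circadian clock genes 3 were higher in Y/T KO colon and 6 in Y/T KO bladder, near the shares of all genes (25.7% and 25.1%), and 2 and 2 without those libraries. Cry2, a clock repressor, was at 8.93, 11.7, 6.32 TPM in Y/T KO colon and 25.1, 20.1, 27.7 TPM in Y/T KO bladder (-1.19 ± 0.24, adjusted p = 0.0051; Ctrl -0.13 ± 0.14; unadjusted p of the change 0.00345, adjusted p = 0.225). Of 17 heat shock genes 4 were higher in colon and 7 in bladder, 0 and 9 with TPM as deposited, and 0 and 4 without those libraries. The share of heat shock genes higher in colon was near that of all genes (25.7%). Hspb8, a small heat shock protein of muscle, was at 57.2, 54.4, 50.6 TPM in colon and 262, 219, 254 TPM in bladder (-1.90 ± 0.11, adjusted p = 1.45e-05).

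The summed level of mitochondrially encoded transcripts in Y/T KO colon ran from 19534 to 41823 TPM, and in Y/T KO bladder from 35122 to 39992 TPM. mt-Co1, a subunit of cytochrome oxidase, was at 15128, 7239, 12477 TPM in Y/T KO colon, lowest in mouse 783, where mt-Co2 was listed at 0 (79.0, 0, 57.7 TPM), as it was in Ctrl colon 788. Of 12 such genes tested 11 moved toward bladder, 3 at an unadjusted p under 0.05, and none was called.

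Of 22 pancreatic acinar genes 7 were tested and 5 were higher in Y/T KO colon. Sycn, a zymogen granule protein, was at 1160.5, 2443, 1208 TPM in Y/T KO colon and 0.586, 0, 0.422 TPM in Y/T KO bladder (12.39 ± 0.73, adjusted p = 5.16e-05; Ctrl 13.21 ± 0.68). Of the 22 genes, 12 were at 0 in all 3 Y/T KO colon libraries, against 1 in all 3 Ctrl colon libraries. At least 0.5 TPM in all 3 libraries was reached by 7 in Y/T KO colon and by 14 in Ctrl colon. Genes detected in Ctrl colon alone fell below the filter, so that their organ differences in Ctrl were not counted.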
